A study of Homo sapiens with 6 samples.

Results

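The Tribbles pseudokinases TRIB1, TRIB2 and TRIB3 were described in the human multiple myeloma cell line MM1.S after treatment with inhibitors of the protein disulfide isomerase PDIA1, an enzyme of the endoplasmic reticulum (ER) that forms and rearranges disulfide bonds in secreted proteins. The members were chosen by symbol, and 3 of 3 were among the 11048 genes listed in the expression files. Cultured MM1.S cells received the vehicle DMSO, 3 µM CCF642 or 3 µM CCF642-34, an analogue of CCF642, for 6 h, and messenger RNA enriched on oligo(dT) was sequenced in 2 libraries per group. The labels number the 2 libraries of a group but do not say that they came from separate cultures, so the spread between them may be technical. The p-values rest mostly on a spread pooled over all genes (42.9 prior degrees of freedom). Each gene's own libraries add little to it (3 residual degrees of freedom). A second cell line, dose or time point was not analysed here.

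The Tribbles proteins have the fold of a protein kinase but little or no catalytic activity, and they act as scaffolds. A motif near the C-terminus recruits the ubiquitin ligase COP1, while the pseudokinase domain holds a substrate, which is then degraded. C/EBP transcription factors are known as such substrates of TRIB1 and TRIB2. The family also binds the MAP kinase kinase MEK1 and, mainly through TRIB3, the kinase AKT. TRIB3 is a classical target of ATF4 and CHOP, transcription factors of the integrated stress response, and in turn TRIB3 protein binds both of them.

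Expression was given as CPM, the reads of a gene scaled to a common library size. Library totals recovered from the CPM steps lay between 20567313 and 28459677 reads, and the least deeply covered member value, TRIB2 in CCF642 replicate 1, rested on 240 reads. MM1.S is a plasma cell line, and 10 of 12 plasma cell markers were listed, with a summed level of 9904 to 10003 CPM in DMSO. In the treated groups the same sum lay at 7020 to 7054 CPM (CCF642) and 7866 to 7911 CPM (CCF642-34). With CCF642, 4 of the 10 markers were higher and 6 lower, and with CCF642-34, 2 were higher and 6 lower (limma, adjusted p under 0.05). Of all listed genes, 31.8% were higher and 31.3% lower with CCF642, and 29.7% higher and 27.9% lower with CCF642-34. Most of the fall in the sum was JCHAIN, the immunoglobulin joining chain, at 4319, 1833 and 2348 CPM in the order DMSO, CCF642 and CCF642-34, while the plasma cell factor IRF4 rose by 0.90 and 1.11 on the log2 scale. The steepest fall of a marker on that scale was that of SDC1, at -1.67 and -1.12. JCHAIN, IRF4 and SDC1 were chosen for mention after their values were seen. Of 23 markers of other blood, epithelial and stromal cells, 6 were listed, with summed levels of 11.8 to 12.1 CPM, 18.6 to 18.7 CPM and 14.4 to 14.4 CPM in the same order. The higher sum with CCF642 came from COL1A1, likewise picked out after its values were seen, at 1.29, 9.76 and 3.13 CPM. Defining markers such as MS4A1, CD14, LYZ and CD8A were not listed. The part of these marker changes in the Tribbles values was not tested. In RNA from a whole culture, fewer cells of a type and less RNA per cell cannot be told apart.

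TRIB3, the member with the largest change, carries a tandem repeat in its first exon, in the 5′ untranslated region of its longest annotated coding transcript. It is shown because its core, TTGCATCA, is the reverse complement of TGATGCAA, a form of the composite C/EBP-ATF element through which ATF4 and CHOP are known to act on this gene. Each copy reads, with that core in capitals:
TRIB3 exon 1 repeat: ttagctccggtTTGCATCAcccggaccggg
The 3 copies were identical over these 30 bases and lay on the plus strand of GRCh38 at chr20:380881-380910, chr20:380914-380943 and chr20:380947-380976, 33 bases from one start to the next. Both strands were searched for TGATGNAA, where N is any base. In the first 553 bases of the longest coding transcript, the length of that 5′ untranslated region of TRIB3, 7.59% of 19327 genes had at least 1 match and 6 genes (0.0310%) had 3 or more. TRIB3, with its 3 copies, is among these 6, and the window was set by its length, so the rarity is no test of TRIB3. TRIB1 and TRIB2 had 0 matches in the same window. Whether the repeat has a part in the change of TRIB3 was not tested. In RefSeq promoter windows of 300 bases around the annotated start (GRCh38.p14), 3.62% of 35116 windows held a match, and the windows of TRIB2 and TRIB3 held 0.

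The 3 genes lie apart in the genome. In the GENCODE annotation of GRCh38, TRIB1 (ENSG00000173334.3) spans positions 125430321 to 125438405 of chromosome 8, TRIB2 (ENSG00000071575.11) positions 12716889 to 12742734 of chromosome 2 and TRIB3 (ENSG00000101255.10) positions 362835 to 397559 of chromosome 20, all on the plus strand. The submitters' processing notes name the older build hg19, so these coordinates describe the genes and were not used to count reads. The longest coding transcripts had 3635 bases in 3 exons for TRIB1, 4391 bases in 3 exons for TRIB2 and 2499 bases in 4 exons for TRIB3, and encoded 372, 343 and 358 amino acids. Over all annotated transcripts of the 3 genes, the longest stretch of identical bases shared by a pair of genes was 20 bases, between TRIB1 and TRIB2. No other annotated gene overlapped an exon of the 3 genes, and the only annotated overlap was the microRNA gene MIR3125 inside TRIB2, which touched 0 exon bases. The 3′ untranslated region of the TRIB2 transcript held 6 ATTTA pentamers, the core of AU-rich elements, against 1 in TRIB1 and 0 in TRIB3.

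The first question was how much each compound changed the level of each Tribbles transcript relative to the vehicle. TRIB3 rose by the largest amount with both compounds, TRIB1 rose with both but less with CCF642-34, and TRIB2 fell with both. All 3 genes passed the test in both comparisons with DMSO (limma, adjusted p under 0.05). At that threshold 63.1% of all listed genes passed with CCF642 and 57.6% with CCF642-34, so that passing was not particular to the family. The libraries of each treated group did not overlap those of DMSO for any of the 3 genes, which held for 81.7% of all listed genes with CCF642 and 79.3% with CCF642-34. Both comparisons used the same DMSO libraries.

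**Figure D1:**
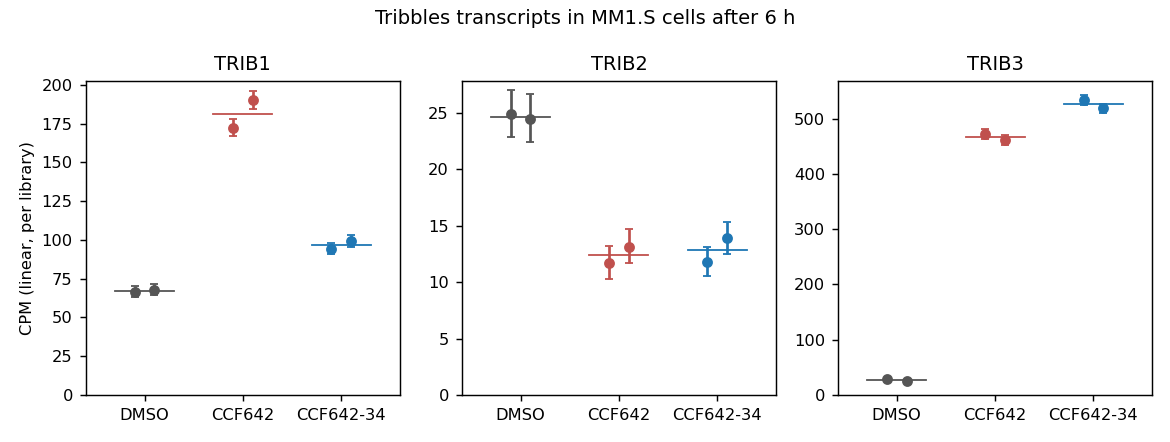
Level of TRIB1, TRIB2 and TRIB3 in each library, in CPM on a linear axis that starts at 0 and differs between panels. Points are libraries, bars are exact Poisson 95% intervals for counting error and horizontal lines are means of 2 libraries. TRIB3 stood at 25.3 to 28.5 CPM in DMSO and at 462 to 533 CPM in the treated libraries.

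TRIB3 measured 28.5 and 25.3 CPM in the DMSO libraries, 472 and 462 CPM in the CCF642 libraries and 533 and 518 CPM in the CCF642-34 libraries. All treated libraries were far above both DMSO libraries, and no library of one group reached into another. Group means were 26.9 ± 2.27, 467 ± 7.66 and 526 ± 10.6 CPM (SD, n = 2 each) for DMSO, CCF642 and CCF642-34, so the treated means were 17.4 and 19.6 times the DMSO mean. On the log2(CPM + 1) scale after TMM scaling, a correction for differences in RNA composition, the change was 4.20 (SE 0.048, limma adjusted p = 3.23e-49) with CCF642 and 4.33 (SE 0.048, limma adjusted p = 8.33e-50) with CCF642-34. In order of log2 fold change, TRIB3 was number 8 from the top of 11048 genes with CCF642 and number 3 with CCF642-34.

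TRIB1, which is known for C/EBP degradation in myeloid cells and for its part in liver lipid metabolism, measured 66.6 and 67.7 CPM in DMSO, 172 and 190 CPM in the CCF642 and 94.3 and 99.1 CPM in the CCF642-34 libraries. The 3 groups were separate, with CCF642-34 between DMSO and CCF642. Means were 67.1 ± 0.782, 181 ± 12.4 and 96.7 ± 3.34 CPM (SD, n = 2 each), so the mean with CCF642 was 2.70 times and that with CCF642-34 1.44 times the DMSO mean. The log2 fold change was 1.55 (SE 0.055, limma adjusted p = 9.85e-29) with CCF642 and 0.61 (SE 0.055, limma adjusted p = 2.21e-13) with CCF642-34. TRIB1 was number 162 from the top with CCF642 and number 842 with CCF642-34.

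TRIB2, likewise a C/EBP-degrading scaffold and an oncogene in acute myeloid leukaemia, measured 24.9 and 24.5 CPM in DMSO, 11.7 and 13.1 CPM in the CCF642 and 11.8 and 13.9 CPM in the CCF642-34 libraries. The treated libraries were all lower than both DMSO libraries, and the libraries of the 2 compounds overlapped. Against a DMSO mean of 24.7 ± 0.281 CPM, the treated means were 12.4 ± 1.04 CPM for CCF642 and 12.8 ± 1.47 CPM for CCF642-34 (SD, n = 2 each), which is 0.503 and 0.520 times the DMSO mean. The log2 fold change was -0.81 with each compound (SE 0.11, limma adjusted p = 1.06e-08 with CCF642 and 1.55e-08 with CCF642-34). These fitted values correspond to folds of 0.569 and 0.571, nearer to 1 than the ratios of the mean CPM, since the pseudocount of 1 and the TMM scaling both draw them in. TRIB2 stood at number 448 from the bottom with CCF642 and number 320 with CCF642-34.

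The SD between the replicates was above the SD that read counting alone would give in every treated group of the 3 genes and, in DMSO, for TRIB3. The counting SD was 1.74 CPM for TRIB1 in DMSO, where the observed SD was 0.782 CPM, and 2.90 CPM for TRIB1 with CCF642, where the observed SD was 12.4 CPM. For TRIB2 with CCF642-34 the counting SD was 0.676 CPM and the observed SD 1.47 CPM. TRIB1 with CCF642 thus had the widest spread beyond counting, with replicate 2 being 1.10 times replicate 1, while its lower library, at 172 CPM, was still above every library of the other groups.

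**Figure D2:**
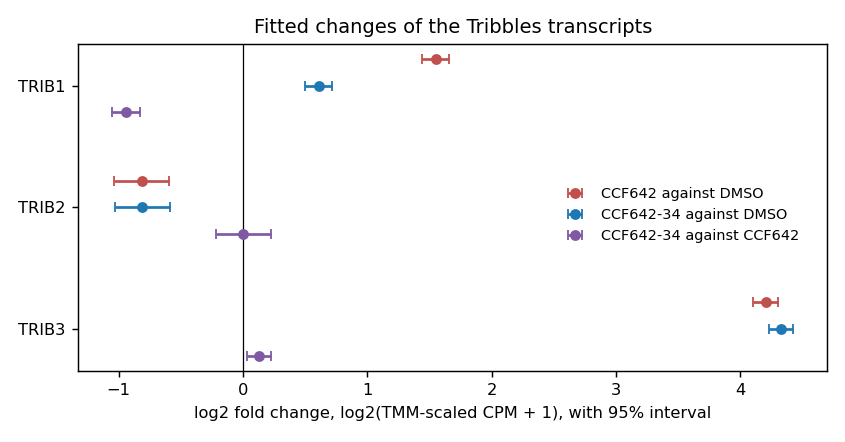
Fitted log2 fold change of each Tribbles gene (limma, log2 of TMM-scaled CPM + 1) in the 3 comparisons, with 95% intervals as bars and a line at no change. TRIB1 differed between the compounds by -0.94, while the interval for TRIB2 ran from -0.22 to 0.22.

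The next question was whether CCF642 and CCF642-34, the only pair of compounds in the series, differed at the same concentration of 3 µM and the same time of 6 h. Whether that concentration was equal in effect on the cells was not tested here. The difference between them was tested directly for each gene and adjusted over all 11048 genes. TRIB1 was lower with CCF642-34 than with CCF642, TRIB2 showed no detectable difference and TRIB3 was slightly higher with CCF642-34. Of all listed genes, 33.4% passed this test, and 2 of the 3 Tribbles genes did. The libraries of the compounds did not overlap for the same 2 genes, as for 65.1% of all listed genes.

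For TRIB1, the mean with CCF642-34 was 0.534 times that with CCF642, and the log2 difference was -0.94 (95% interval -1.05 to -0.83, limma adjusted p = 3.86e-19). This was number 43 from the bottom of all genes in this comparison. Every CCF642-34 library was below both CCF642 libraries.

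For TRIB3, the mean with CCF642-34 was 1.13 times that with CCF642, and both CCF642-34 libraries were above both CCF642 libraries. The log2 difference was 0.13 (95% interval 0.029 to 0.22, limma adjusted p = 0.0391), or 9.16% on the fitted scale. That call did not hold under every setting: leaving out replicate 2 of CCF642 (limma adjusted p = 0.107), replicate 1 of CCF642-34 (0.262) or replicate 2 of CCF642-34 (0.0867) ended it, as did DESeq2 size factors (0.0531), while the difference stayed between 0.10 and 0.17 in every alternative.

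For TRIB2, the log2 difference was 0.0035 (SE 0.11, limma adjusted p = 0.984). The 95% interval reached from -0.22 to 0.22, which allows folds from 0.860 to 1.17 between the compounds, and at 240 to 386 reads per treated library a smaller difference was not detectable.

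**Figure D3:**
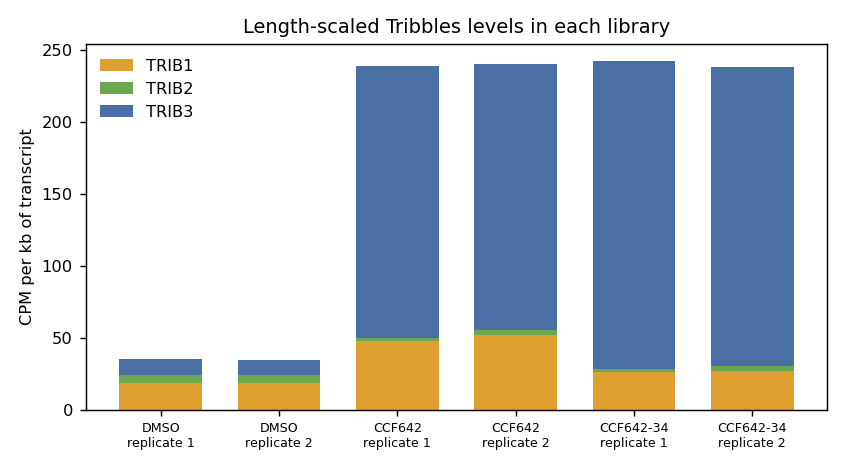
Level of the 3 Tribbles transcripts in each library as stacked bars, in CPM per kb of the longest coding transcript. The sum rose from 34.3 to 35.4 in DMSO to between 238 and 242 in the treated libraries, most of it TRIB3.

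Levels of different genes were compared per length, as CPM divided by the length of the longest coding transcript in kb. In DMSO the order was TRIB1 at 18.5 ± 0.215, TRIB3 at 10.8 ± 0.909 and TRIB2 at 5.62 ± 0.0641 CPM per kb (SD, n = 2). With CCF642 the order became TRIB3 at 187 ± 3.06, TRIB1 at 49.9 ± 3.42 and TRIB2 at 2.83 ± 0.238 CPM per kb. With CCF642-34 it was TRIB3 at 210 ± 4.24, TRIB1 at 26.6 ± 0.920 and TRIB2 at 2.93 ± 0.335 CPM per kb. Neighbours in each order were separated in both libraries, and the order was the same in each library of a group.

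TRIB3 made up 30.8% of the summed per-length level of the family in DMSO, 78.0% with CCF642 and 87.7% with CCF642-34. The share of TRIB1 went from 53.0% to 20.8% and 11.1%, although its own level rose, and that of TRIB2 from 16.1% to 1.18% and 1.22%. The summed level was 239 and 240.0 CPM per kb with CCF642 and 242 and 238 CPM per kb with CCF642-34. By this measure the libraries of the 2 compounds overlapped in the sum while the composition differed. Per length of all exons of a gene, the sums were 181.8 and 183.2 with CCF642 and 180.7 and 177.9 with CCF642-34. Those sums did not overlap, and neither measure was TMM-scaled. These values depend on which isoforms the cells used, which gene totals do not show.

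The genes whose pattern was most like each member were found from the distance between log2 values of the 6 libraries, each centred on its gene's mean, among 8923 genes with a mean of at least 3 on that scale. For TRIB1 the nearest were FBXO32, the muscle atrophy ubiquitin ligase subunit atrogin-1 (distance 0.115), PIGA, which starts the synthesis of GPI anchors (0.130), the co-chaperone DNAJA4 (0.135), the zinc finger factor HIVEP1 (0.168) and the MAP kinase phosphatase DUSP1 (0.172). The median distance of all genes from TRIB1 was 1.59. FBXO32 averaged 62.5, 174 and 92.1 CPM in DMSO, CCF642 and CCF642-34, intermediate with CCF642-34 like TRIB1. The genes were picked by closeness over these same 6 libraries, so a pattern shared with the member follows from the choice.

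For TRIB2 the nearest genes were TMEM19 (0.0884), the cohesin acetyltransferase ESCO2 (0.0923), the spindle checkpoint pseudokinase BUB1B (0.106), and the DNA repair scaffolds PAXIP1 (0.108) and SLX4 (0.128), against a median distance of 1.003. All 5 fell with both compounds, by 0.77 to 0.93 on the log2 scale with CCF642 and by 0.73 to 0.86 with CCF642-34. None of the 5 passed the test between the compounds. Both traits follow from the choice of genes close to TRIB2.

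For TRIB3 the nearest genes were more distant: the stress-induced sestrin SESN2 (0.395), the peptide hormone gene ADM2 (0.482), the phosphatase DUSP8 (0.587), the glutathione-degrading enzyme CHAC1 (0.708) and the glucocorticoid-induced leucine zipper TSC22D3 (0.892), against a median of 4.92. SESN2 averaged 24.1, 497 and 438 CPM in DMSO, CCF642 and CCF642-34. The fitted means of all 5 were lower with CCF642-34 than with CCF642, with log2 differences from -0.42 to -0.19. Of the 5, 4 passed the test as lower, beside 17.4% of all listed genes. The difference of TRIB3 was 0.13, a call that was lost in 4 of 16 alternatives. The members were not near each other, since 8610 of the 8923 genes were nearer to TRIB1 than TRIB2 was and 8920 were nearer than TRIB3 was.

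**Figure D4:**
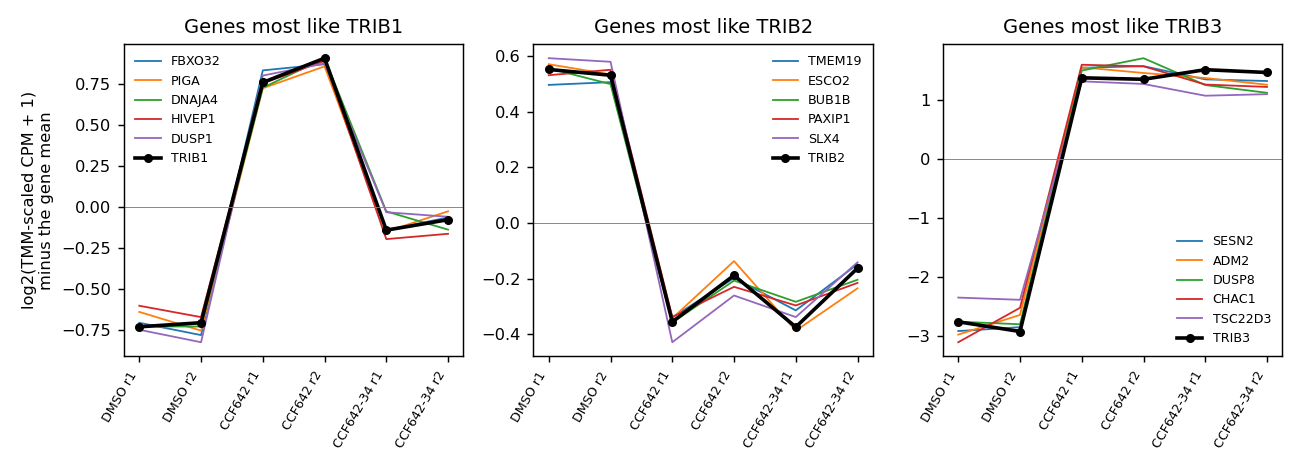
Log2(TMM-scaled CPM + 1) minus the gene's own mean in each of the 6 libraries (r1 and r2 are the replicates) for each Tribbles gene in black and its 5 nearest genes in colour. The panels show 3 shapes: highest with CCF642 and intermediate with CCF642-34 for TRIB1, lower with both for TRIB2, and higher with both for TRIB3.

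Upstream of TRIB3, the 4 kinases that phosphorylate eIF2α and so start the integrated stress response were all listed. EIF2AK3, which encodes the ER stress sensor PERK, started at 149 ± 0.581 CPM and rose to 515 ± 5.49 CPM under CCF642 (log2 fold change 1.92) and 409 ± 11.1 CPM under CCF642-34 (1.54). EIF2AK2, the kinase PKR activated by double-stranded RNA, fell slightly with both (-0.17 and -0.26). EIF2AK1, the heme-regulated kinase, fell with CCF642 (-0.17) and had a change of 0.023 with CCF642-34, and EIF2AK4, the amino acid sensor GCN2, rose with CCF642 (0.30) and had a change of 0.094 with CCF642-34.

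ATF4 itself, translated preferentially when eIF2α is phosphorylated, had 420 ± 11.9 CPM in DMSO and rose to 1080 ± 28.8 CPM (CCF642) and 1114 ± 15.5 CPM (CCF642-34), a log2 fold change of 1.50 with each. DDIT3, which encodes CHOP, rose from 20.7 ± 0.123 CPM to 212 ± 18.4 CPM and 204 ± 0.954 CPM (3.42 and 3.32). Neither passed the test between the compounds, with log2 differences of 0.00068 for ATF4 and -0.097 for DDIT3 (limma adjusted p = 0.991 and 0.193).

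Of 39 further ATF4-CHOP target genes including these regulators, TRIB3 not among them, 37 were listed. With CCF642, 35 rose and 1 fell, and with CCF642-34, 35 rose and 2 fell. The median log2 fold change was 1.70 and 1.69, beside -0.0066 and 0.0067 over all listed genes, of which 31.8% rose and 31.3% fell with CCF642 and 29.7% rose and 27.9% fell with CCF642-34. The change of TRIB3, 4.20 and 4.33, was exceeded in the list by ATF3, SESN2 and CHAC1 with CCF642 and by ATF3 with CCF642-34.

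ATF3, a repressor induced in many stresses, rose from 22.9 ± 0.105 CPM in DMSO, reaching 1406 ± 36.8 CPM in CCF642 and 856 CPM in CCF642-34 libraries. CHAC1 rose from 5.48 ± 1.84 CPM to 122 ± 2.09 CPM and 98.9 ± 1.67 CPM. The exceptions were ERO1A, the oxidase that recharges PDIA1, which fell by 0.49 and 0.22 on the log2 scale, and ATF5, which fell by 0.25 with CCF642-34 and had a change of 0.15 with CCF642. Between the compounds, 12 of the 37 were lower and 4 higher with CCF642-34, with a median of -0.017 (0.025 with scaling by library size alone). Of all listed genes, 15.9% were higher and 17.4% lower in that comparison.

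**Figure D5:**
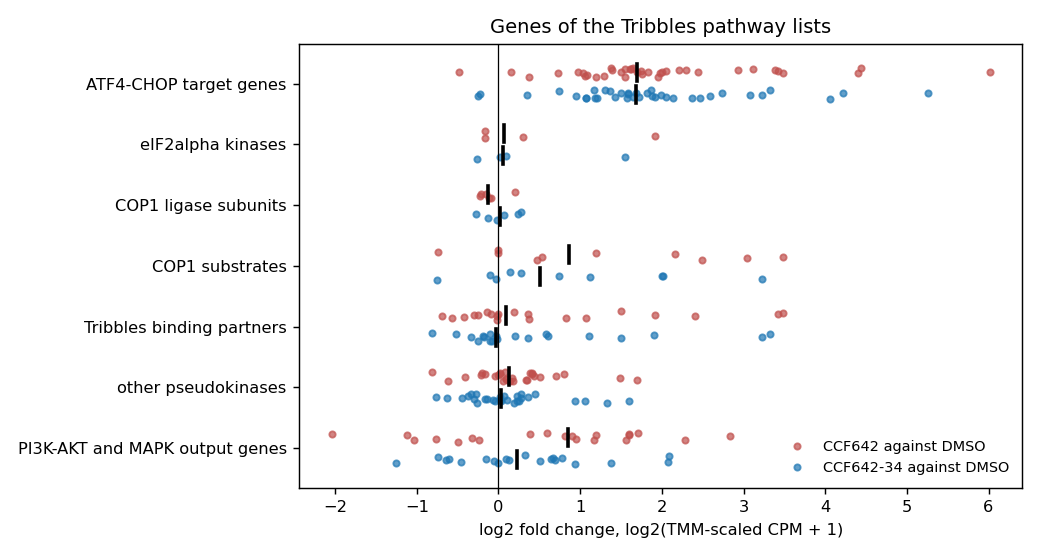
Log2 fold change against DMSO of each listed gene of the pathway lists (limma, log2 of TMM-scaled CPM + 1), with CCF642 in red, CCF642-34 in blue and the list median as a black bar. The ATF4-CHOP target genes have medians of 1.70 and 1.69, while the COP1 ligase subunits lie between -0.28 and 0.28.

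Among the subunits of the COP1 ligase that Tribbles proteins recruit, 6 of 7 were listed, and COP1 itself was not listed under that symbol or as RFWD2. All changes were small. The adaptor DDB1 (-0.22 and -0.12) and the cullin CUL4A (-0.22 and -0.28) fell with both compounds, and CUL4B fell with CCF642 (-0.15) and had a change of -0.023 with CCF642-34. DDA1 rose with both (0.21 and 0.28), although the call with CCF642 was lost when libraries were scaled by size alone. The RING subunit RBX1 had a change of -0.11 with CCF642 and rose by 0.24 with CCF642-34, and DET1 passed in neither comparison (-0.087 and 0.062). The list medians were -0.13 and 0.019, and with scaling by library size alone they became -0.26 and -0.067, RBX1 then passing as lower with CCF642 (-0.25, limma adjusted p = 0.00115).

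Of 13 proteins that COP1 is known to degrade, 10 had listed transcripts, and CEBPA, the best-known Tribbles substrate, was not among them. With each compound 6 of the 10 rose and 1 fell, with medians of 0.86 and 0.51. Over all listed genes 31.8% rose and 31.3% fell with CCF642, and 29.7% rose and 27.9% fell with CCF642-34. CEBPB, a C/EBP factor of the same family, rose from 6.00 ± 0.621 CPM in DMSO and reached 70.6 ± 3.83 CPM (CCF642) and 60.8 ± 3.89 CPM (CCF642-34). The AP-1 subunit JUN rose from 146 ± 2.46 CPM to 1104 ± 2.09 CPM and 554 ± 20.8 CPM, and JUND from 116 ± 3.89 CPM to 598 ± 24.0 CPM and 444 ± 34.3 CPM. The lymphoid factor ETS1 fell from 94.2 ± 0.619 CPM to 51.0 ± 1.29 CPM and 52.1 ± 2.40 CPM.

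Between the compounds, 5 of these 10 were lower with CCF642-34 and none higher, against 17.4% lower and 15.9% higher among all listed genes. JUN differed by -1.04 on the log2 scale, beside -0.94 for TRIB1, whereas CEBPB differed by -0.26 and lost its call when libraries were scaled by size alone. These are transcript levels, and the amounts of the proteins were not measured in these files.

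Of 23 proteins reported to bind a Tribbles protein, 20 had listed transcripts, of which 10 rose and 6 fell with CCF642 and 9 rose and 7 fell with CCF642-34. The shares that fell, 30% and 35%, were near the 31.3% and 27.9% of all listed genes, and the shares that rose, 50% and 45%, stood beside 31.8% and 29.7%. The lists overlap: ATF4, DDIT3 and CEBPB are also in the ATF4-CHOP list, and CEBPB and ACACA also among the COP1 substrates. The medians were 0.093 and -0.026, and with scaling by library size alone they became -0.039 and -0.12, with 9 higher and 9 lower, and 8 higher and 9 lower. AKT1 fell from 75.2 ± 2.25 CPM in DMSO, with 50.7 ± 1.39 CPM in CCF642 and 55.8 ± 3.32 CPM in CCF642-34 libraries (-0.43 and -0.34). MAP2K1, which encodes MEK1, changed by 0.19 and 0.20, calls that were both lost with scaling by library size alone. The autophagy receptor SQSTM1, a TRIB3 partner, rose from 1004 ± 9.65 CPM to 4863 ± 121 CPM and 3523 ± 81.3 CPM. The cell cycle phosphatases CDC25A (-0.57 and -0.81) and CDC25C (-0.70 and -0.53) fell with both compounds.

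Other pseudokinases were examined to place the family among proteins of like fold. Of 38, 29 were listed, with 12 higher and 3 lower with CCF642 and 9 higher and 6 lower with CCF642-34. With CCF642-34 these were 31.0% higher and 20.7% lower, near the 29.7% and 27.9% of all listed genes, and with CCF642 41.4% and 10.3%, beside 31.8% and 31.3%. The medians were 0.12 and 0.028. With scaling by library size alone they became 0.00013 and -0.058, and the counts 9 higher and 5 lower, and 7 higher and 9 lower. STK40, the closest relative of the Tribbles proteins and likewise a COP1 partner, had the largest increase among those called: it had 118 ± 3.17 CPM in DMSO, 348 ± 7.88 CPM in CCF642 and 336 ± 17.0 CPM in CCF642-34 libraries (1.69 and 1.60). Its log2 difference between the compounds was -0.092 (limma adjusted p = 0.110).

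IRAK2, of Toll-like receptor signalling, rose by 1.49 and 1.32, and STYK1 by 0.70 and 1.06 from a low level of 0.742 CPM. BUB1B (-0.81 and -0.77) and the O-mannose kinase POMK (-0.61 and -0.63) fell with both compounds, beside -0.81 and -0.81 for TRIB2. MLKL, the executor of necroptosis, had a change of 0.12 with CCF642 and fell by 0.45 with CCF642-34. The changes of TRIB3 against DMSO were larger than those of all 29.

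Transcripts downstream of AKT and of the MAP kinase cascade, both of which Tribbles proteins are known to bind, moved in both directions. Of 24 such genes 20 were listed, with 13 higher and 7 lower with CCF642 and 11 higher and 5 lower with CCF642-34, and medians of 0.86 and 0.22. The shares that fell, 35% and 25%, were near those of all listed genes, 31.3% and 27.9%, while 65% and 55% rose beside 31.8% and 29.7%. These counts and medians take no account of whether a pathway raises or lowers a gene, so they do not measure pathway activity. With scaling by library size alone the counts for CCF642-34 became 10 higher and 8 lower. The immediate early gene FOS rose by 2.83 and 2.09, KLF2 by 2.28 and 2.08, and KLF6 by 1.70 and 1.37. MYC fell from 459 ± 9.08 CPM to 101 ± 2.46 CPM and 181 ± 0.285 CPM, and the insulin receptor substrate IRS1 (-1.04 and -0.74) and the MAP kinase inhibitor SPRY1 (-1.12 and -0.65, from 3.20 CPM) also fell.

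Between the compounds, 12 of these 20 were lower and 3 higher with CCF642-34, with a median of -0.31, where 17.4% of all listed genes were lower and 15.9% higher. For FOS the difference was -0.74, for KLF6 -0.33 and for FBXO32 -0.95, and MYC, which fell less with CCF642-34, differed by 0.79. TRIB1, at -0.94, lay at the low end of this list, which ran from -0.95 to 0.79. Only FBXO32, the gene nearest to TRIB1 by pattern, was lower, and the next was SGK1 at -0.85.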

How the data were processed

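Poly(A) RNA of 6 MM1.S libraries (DMSO, CCF642 and CCF642-34, 2 each) was sequenced by the authors. Each deposited file gives CPM per gene symbol. The unit was read from the values, which in all 6 libraries are whole multiples of 1 read within 0.001 read, and the submitters' processing notes name STAR, edgeR 3.24.3, limma 3.38.3 and hg19 without their roles. The listed genes hold 99.9% of the reads, and each reaches at least 1.50 CPM in some library, so genes below that were not analysed here. A joint table of the same libraries was used for its gene symbols alone.

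CPM were scaled by TMM factors (edgeR 4.0.16) and analysed as log2(value + 1) in limma 3.58.1 (R 4.3.3; trended empirical Bayes, 3 groups in one fit, two-sided, Benjamini-Hochberg over 11048 genes, threshold 0.05). A fold change on this scale understates the change of low genes. The procedure was run on simulated counts in which few genes changed, balanced between higher and lower. Far more genes were called in these data, so that run does not check the scaling or the error rate here. Alternatives were DESeq2 size factors, library size alone, pseudocounts of 0.1 and 2, a minimum mean of 5 CPM, edgeR quasi-likelihood, DESeq2 1.42.0 and limma-voom on the recovered reads, the 2 groups alone, a replicate block and omission of each library. Poisson intervals cover counting error only.

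The members and lists were chosen with earlier results of these data known. Named were the 3 members, the 5 genes nearest to each, the 3 largest increases and decreases with CCF642-34 called in each list, all genes of lists of up to 8, and ATF4, DDIT3, CEBPB, AKT1, MAP2K1 and STK40. Outside these rules, ACACA was named for the overlap of lists. SGK1 and the markers JCHAIN, IRF4, SDC1 and COL1A1 were named after their values were seen. Transcripts, lengths and the TRIB3 repeat came from GENCODE 29 (GRCh38), and promoter windows from RefSeq (GRCh38.p14).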

Additional observations from a re-analysis of the deposited data

How the results depend on the processing

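The changes of TRIB1 in all 3 comparisons and of TRIB2 and TRIB3 against DMSO kept their direction and stayed past the threshold in all 16 alternatives. For TRIB1 the log2 value ranged from 1.42 to 1.62 with CCF642, from 0.52 to 0.64 with CCF642-34 and from -1.02 to -0.87 between the compounds. For TRIB2 the range was -0.94 to -0.73 with CCF642 and -0.91 to -0.70 with CCF642-34, and for TRIB3 it was 4.07 to 4.28 and 4.24 to 4.41.

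The difference of TRIB3 between the compounds was past the threshold in 12 of 16 alternatives (adjusted p from 0.00503 to 0.262). It missed it at 0.12 with DESeq2 size factors and in 3 of the omissions of a library, over which it ran from 0.10 to 0.15. The difference of TRIB2 between the compounds was never past the threshold (adjusted p from 0.602 to 0.993), and its sign changed with DESeq2 size factors (-0.0042), DESeq2 (-0.0045), limma-voom (-0.0019), without CCF642 replicate 1 (-0.080) and without CCF642-34 replicate 2 (-0.10), with omissions of a library spanning -0.10 to 0.11. The cause was not tested.

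No pairing by replicate number was visible: deviations of same-numbered libraries correlated at -0.027, -0.058 and 0.070 over 10311 genes. Whether same-numbered libraries were handled together is not known from the labels. With the replicate block the number of genes called was 7014, 6422 and 3802 in place of 6974, 6362 and 3685, and the difference of TRIB3 between the compounds was 0.13 (limma adjusted p = 0.0286).

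Scaling by library size alone shifted the median of all genes to -0.13, -0.078 and 0.051 and the share of calls that were higher from 50.4% to 34.8%, from 51.6% to 38.6% and from 47.8% to 61.8%. Of 54 list counts, 8 moved by over 1.5 times under it and none under DESeq2 size factors. Per length of all exons of a gene, TRIB1 was at 16.2, 43.8 and 23.4, TRIB2 at 5.38, 2.70 and 2.80 and TRIB3 at 7.83, 136 and 153 CPM per kb in DMSO, CCF642 and CCF642-34. The order within DMSO and within each treatment was TRIB1, TRIB3, TRIB2 and TRIB3, TRIB1, TRIB2 by this measure too.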
